A study of Mus musculus with 6 samples.

Results

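The transferrin receptor gene Tfrc and 9 further genes of iron handling (Tfr2, Steap3, Slc11a2, Fth1, Ftl1, Slc40a1, Aco1, Ireb2 and Hmox1) were examined in glomeruli of dendrin knockout mice. The members were all probe sets that the array annotation assigns to exactly 1 of these genes, which gave 24 of the 45101 probe sets and covered 9 of the 10 genes. Ftl1 had no probe set of its own. The topic was chosen by the lower value of 1 Tfrc probe set in knockout glomeruli on these same arrays, so the Tfrc contrast is given as a description, and the question put to the other members was how their mRNA levels lay beside it.

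Glomeruli, the filtering units of the kidney, were taken from 3 dendrin knockout mice and from 3 littermate control mice of wild-type genotype, all 13 months old, and each mouse gave 1 expression array. The profiling asked how a glomerulus without dendrin, a protein of the podocyte slit diaphragm, differs in gene expression. The knockout is constitutive: an eGFP and neomycin resistance insert stands in place of the dendrin coding region in all cells of the mouse. The mice descended from a targeted embryonic stem cell line of 129S6SvEv/C57BL6 origin that was backcrossed to C57BL/6, and both groups carry that background in their labels.

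Cells take up transferrin-bound iron through the transferrin receptor, reduce it in endosomes, store the surplus in ferritin and export it through ferroportin. In iron-poor cells the iron regulatory proteins bind hairpins called iron-responsive elements, which protects Tfrc mRNA at its 3′ end and blocks translation of ferritin and ferroportin mRNA at their 5′ ends, and in iron-rich cells the binding is lost. Arrays read mRNA levels, so the control of ferritin translation lies outside what they measure.

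Values are log2 intensities after GCRMA processing, and a difference is knockout minus control with its limma standard error (SE). A probe set with a mean under log2 4 over the 6 arrays is called dim, since it lies near the floor of 2.20, and 56.5% of all probe sets were dim. Over the probe sets that were not dim, arrays of different mice correlated at 0.973 to 0.995, and at 0.988 or more without control 2. Control 2 stood apart in the summed log2 level of cell type markers, dim ones included, relative to the mean of the other 5 arrays. It lay at -2.63 for 10 macrophage genes. For 6 genes of loop, distal tubule and collecting duct it lay at 2.09, and for 8 proximal tubule genes at 1.24. Control 3 stood apart in the quality probe sets for 18S ribosomal RNA, at 11.95 to 13.55, where the other 5 arrays lay at 6.05 to 6.67. The summed podocyte markers lay at 16.64 to 16.72 in knockout and 16.50 to 16.73 in control glomeruli. The 8 summed glomerular endothelial markers lay at 15.94 to 16.06 in knockout and 16.06 to 16.13 in control glomeruli. Among them Kdr (-0.22), Tek (-0.18), Flt1 (-0.18) and Emcn (-0.08) did not overlap between the groups, beside 13.7% of all probe sets that were not dim. The other endothelial markers overlapped, with lower knockout means. The part of endothelial content in the iron genes was not tested. Ddn, the targeted gene, was at 3.80 to 3.81 in knockout and 12.22 to 12.81 in control glomeruli, a difference of -8.64 (limma, adjusted p = 0.0197).

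Of the 24 member probe sets 13 were not dim, at least 1 for each of 8 genes. In limma 1 of the 24 (4.17%), a Tfrc probe set, passed a fold over 1.5 with an unadjusted p under 0.05, beside 0.180% of all probe sets, and nothing is read from that share because this contrast chose the topic. No member passed an adjusted p of 0.05 in limma, where 0.00222% of all probe sets did, which was 1 probe set. At an unadjusted p under 0.05 limma called 1 member (4.17%) beside 3.63% of all probe sets. SAM, the permutation-based test named in the study's methods, called 2 members (8.33%) beside 5.18%. The limma call and 1 of the SAM calls were Tfrc. The shares of all probe sets include 16139 that were constant on all arrays and could not be called. In a limma fit of only the probe sets that were not dim, 2 of 13 members (15.4%), 1 of them Tfrc, were called beside 8.06%. The knockout and control values did not overlap in 1 of the 13 members that were not dim, again Tfrc, beside 13.7% of all probe sets that were not dim.

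Tfrc encodes the receptor that carries transferrin-bound iron into cells. Its mRNA was measured above the dim range by 1 of 6 probe sets, 1452661_at, which read 7.29, 7.33 and 7.89 in knockout mice 1, 2 and 3, against 8.07, 9.0 and 8.32 in control mice 1, 2 and 3. The knockout arrays were all lower than the control arrays, with a gap between 7.89 in knockout 3 and 8.07 in control 1. The means were 7.50 ± 0.33 in knockout and 8.46 ± 0.48 in control glomeruli (SD, n = 3 each), a difference of -0.96 (SE 0.33) or 1.94-fold lower in the knockout. Control 2 was the highest array, 1.22 above the mean of the other 5. Without it the control mean was 8.19 and the difference -0.69 (SE 0.25), and the probe set no longer passed the criterion of fold and p.

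**Figure D1:**
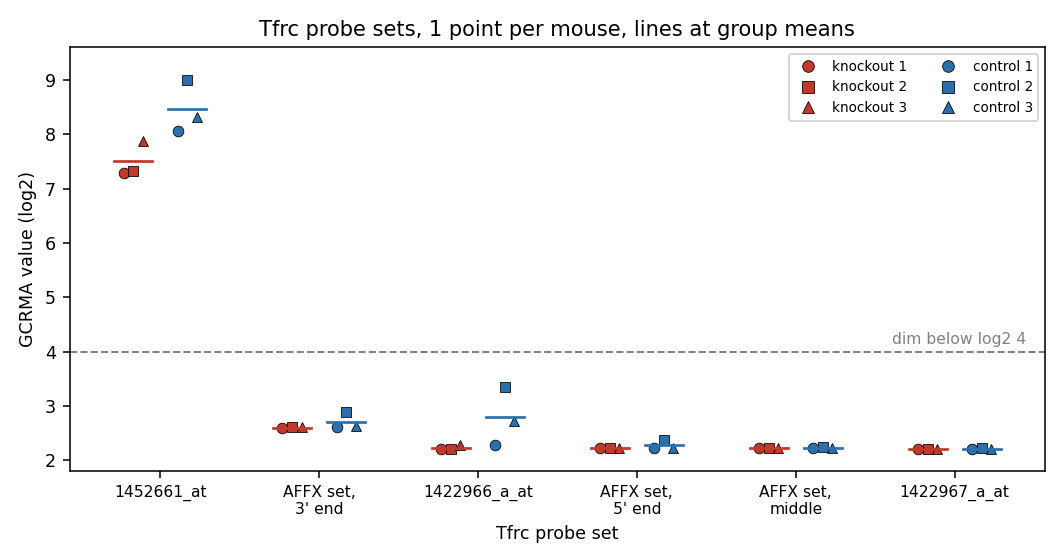
Log2 GCRMA values (vertical axis) of the 6 Tfrc probe sets (horizontal axis), 1 point per mouse, knockout left of control and lines at group means; AFFX sets are the manufacturer's quality probe sets for parts of the transcript. The 3 knockout values of 1452661_at, 7.29 to 7.89, lie below the 3 control values, 8.07 to 9.0, while the other 5 probe sets stay below the dashed line at log2 4.

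The other 5 Tfrc probe sets were dim in both groups. Among them 1422966_a_at read 2.22, 2.20 and 2.29 in knockout and 2.29, 3.36 and 2.73 in control glomeruli, a difference of -0.56 (SE 0.30), with knockout 3 and control 1 just short of meeting. The manufacturer's quality probe set for the 3′ end of Tfrc read 2.60, 2.61 and 2.61 in knockout and 2.61, 2.90 and 2.64 in control glomeruli. Those for the 5′ end and the middle lay at 2.22 to 2.23 in knockout and 2.22 to 2.37 in control glomeruli, so no difference between the ends of the transcript could be read. Control 2 held the highest value in all 6 Tfrc probe sets. The same end-to-end measure in housekeeping genes was alike in both groups: 3′ minus 5′ was 0.43 to 0.50 in knockout and 0.42 to 0.51 in control glomeruli for Actb, and -0.39 to -0.34 in knockout and -0.36 to -0.34 in control glomeruli for Gapdh.

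Erythroid precursors and dividing cells carry much transferrin receptor, and their markers were set beside Tfrc. Of 11 erythroid markers 7 had a probe set of their own and 1, Alas2, was not dim. Alas2 read 4.0, 4.32 and 5.25 in knockout and 3.62, 3.98 and 4.36 in control glomeruli. Hba-a1, an alpha globin, was at 2.28 and Klf1, an erythroid transcription factor, at 2.21 on all 6 arrays, both near the floor. Probe sets that name several genes were not read for these markers. The summed erythroid level was 5.73 to 6.27 in knockout and 5.60 to 5.85 in control glomeruli. Of 10 cycling-cell markers 9 had a probe set of their own and 6 were not dim. The summed level of the 9 was 8.0 to 8.49 in knockout and 7.16 to 8.24 in control glomeruli. It was lowest in control 2, where Tfrc was highest. The 6 markers that were not dim all had higher knockout means, by 0.34 (Birc5, SE 0.13) to 0.84 (Ccnb2, SE 0.42). Of these 5 were lowest in control 2. The part of the tubule genes of control 2 in the Tfrc value of that array was not tested.

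**Figure D2:**
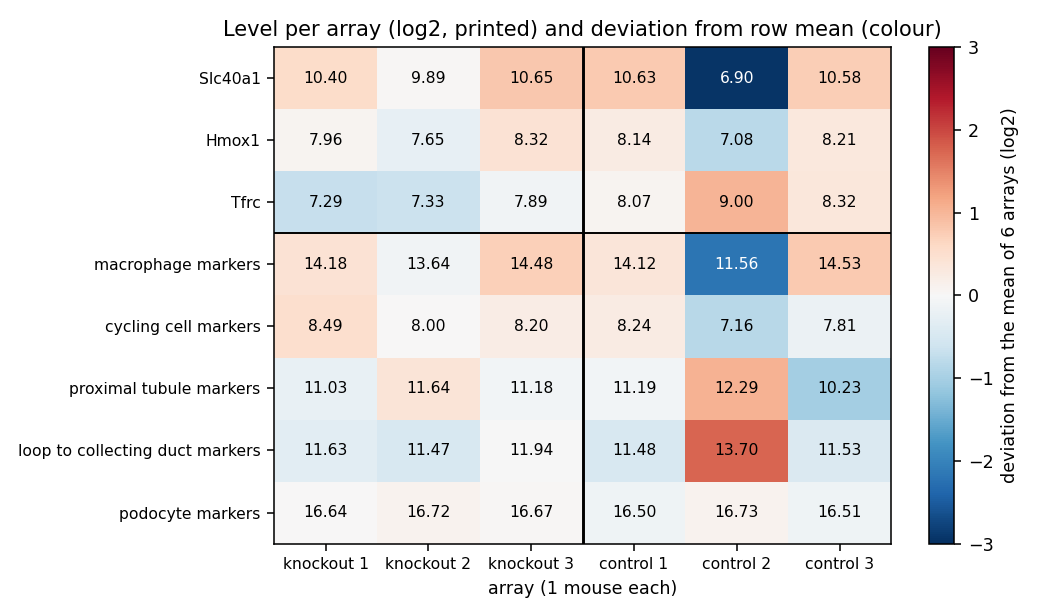
Level on each array (columns, 1 mouse each, knockout left of control) of Slc40a1, Hmox1, Tfrc and the summed markers of 5 cell types, printed as log2 values, with the deviation from the mean of the 6 arrays in log2 as colour. Control 2 is at 11.56 for macrophage markers, against 13.64 to 14.48 in knockout glomeruli, and is the highest array for Tfrc and both tubule lists and the lowest for Slc40a1 and Hmox1.

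The Tfrc promoter is shown because Tfrc is the gene on which the comparison turns and because hypoxia-inducible factor (HIF) is known from cell lines to act on it. The RefSeq window of build GRCm38.p6, plus strand, chr16:32608646-32608945, runs from 250 bases before to 50 bases after a start site. Capitals mark ACGTG, a form of the core of the HIF element, searched on both strands. Other forms of the core were not searched.

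Tfrc: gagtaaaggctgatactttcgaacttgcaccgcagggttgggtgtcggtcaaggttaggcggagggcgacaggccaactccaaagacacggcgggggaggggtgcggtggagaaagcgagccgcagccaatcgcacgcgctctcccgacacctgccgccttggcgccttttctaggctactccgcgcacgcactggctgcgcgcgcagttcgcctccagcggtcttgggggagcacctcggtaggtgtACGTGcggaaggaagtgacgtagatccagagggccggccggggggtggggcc

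These letters occurred in 19.6% of the 32851 promoter windows of the table. Among the members 7 genes had 14 windows, and the letters occurred in 4 of the windows, 2 of Tfrc and 2 of the 3 of Tfr2. Both Tfrc windows overlap and hold the same ACGTG, so that this match is counted in each. The E-box CACGTG, which contains ACGTG, occurred in 7.15% of all windows and in 0 of the 14. A match of 5 letters is a description of the window and not a bound site.

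Tfr2, the second transferrin receptor, known as an iron sensor in liver and erythroid cells, was dim. Its probe set 1459994_x_at read 2.83, 3.47 and 2.80 in knockout and 2.84, 2.74 and 2.84 in control glomeruli, and 1425381_a_at read 2.21 on all arrays. Knockout 2 was the only array of 1459994_x_at clearly off the floor level of the others.

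Steap3 encodes the endosomal reductase that converts iron after uptake by the receptor. Its brighter probe set 1423468_at read 6.60, 6.80 and 6.98 in knockout and 6.52, 6.91 and 6.89 in control glomeruli, a difference of 0.02 (SE 0.16, 95% interval -0.42 to 0.46). The groups overlapped throughout. The second probe set, 1430355_a_at, read 5.81, 5.77 and 5.94 in knockout and 5.93, 6.24 and 6.16 in control glomeruli, a difference of -0.27 (SE 0.10, limma adjusted p = 1). Knockout 3 and control 1 overlapped by a small margin, and this was the second member that SAM called without adjustment. The 2 probe sets of Steap3 thus gave different values, and the third was dim.

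Slc11a2 encodes DMT1, the transporter that moves reduced iron out of endosomes. Probe set 1452078_a_at read 7.32, 7.24 and 7.22 in knockout and 7.05, 6.90 and 7.27 in control glomeruli, a difference of 0.19 (SE 0.11, 95% interval -0.10 to 0.48, limma adjusted p = 1). Control 3 lay among the knockout values. Probe set 1417584_at read 6.62, 6.35 and 6.60 in knockout and 6.43, 6.33 and 6.44 in control glomeruli, a difference of 0.12 (SE 0.09). With each array left out in turn, 1452078_a_at differed by 0.10 (without control 2) to 0.29 (without control 3), and the remaining 2 probe sets of the gene were dim. Slc11a2 lies on chromosome 15, as Ddn does, with 42 protein-coding genes between them.

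Fth1 encodes the ferritin heavy chain, which oxidises and stores iron. Probe set 1448771_a_at read 14.59, 14.45 and 14.61 in knockout and 14.65, 14.50 and 14.74 in control glomeruli, a difference of -0.08 (SE 0.08, 95% interval -0.30 to 0.14). The second, 1427021_s_at, read 13.39, 13.36 and 13.39 in knockout and 13.39, 13.37 and 13.54 in control glomeruli, a difference of -0.05 (SE 0.05). In both probe sets the groups overlapped. Ftl1, the ferritin light chain, was named by 3 probe sets together with its copy Ftl1-ps2, so their signal cannot be assigned to either. The brightest of them, 1418364_a_at, read 13.35, 13.35 and 13.49 in knockout and 13.45, 13.11 and 13.65 in control glomeruli. The control arrays spanned the knockout arrays on both sides.

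Slc40a1 encodes ferroportin, the exporter of iron, which iron-recycling macrophages carry at high level. Probe set 1417061_at read 10.40, 9.89 and 10.65 in knockout and 10.63, 6.90 and 10.58 in control glomeruli, and 1448566_at read 9.28, 8.67 and 9.47 in knockout and 9.48, 5.12 and 9.56 in control glomeruli. Control 2 was far below every other array, at -3.53 (11.5-fold lower) and -4.17 (18-fold lower) relative to the mean of the other 5, while the remaining arrays of both groups lay close together. The group difference of 1417061_at was 0.94 (SE 1.21, 95% interval -2.32 to 4.20, limma adjusted p = 1), and without control 2 it turned to -0.30 (SE 0.28). The difference of 1448566_at was 1.09 (SE 1.43), and -0.38 (SE 0.30) without control 2.

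The 9 macrophage markers that were not dim were all lowest in control 2. The summed level of all 10 macrophage markers was 13.64 to 14.48 in knockout and 11.56 to 14.53 in control glomeruli. Cd163, a scavenger receptor for haemoglobin on macrophages, was at 2.20 on all arrays. The part of macrophage content in the Slc40a1 values was not tested. In bulk glomeruli fewer cells of a type and less RNA per cell cannot be told apart.

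**Figure D3:**
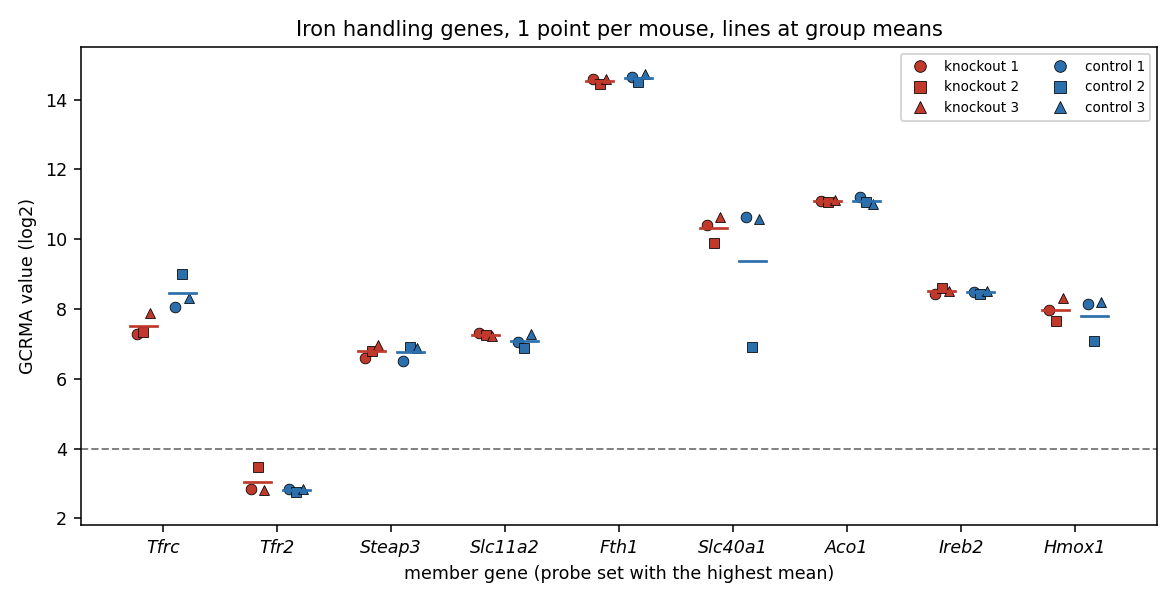
Log2 GCRMA values (vertical axis) of the probe set with the highest mean for each of the 9 genes (horizontal axis), 1 point per mouse, knockout left of control, lines at group means and a dashed line at log2 4. Tfrc is lower in all 3 knockout mice and Slc40a1 has control 2 at 6.90, below all other arrays; heights of different genes are not comparable.

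Aco1 and Ireb2 encode the iron regulatory proteins themselves. Aco1 (1456728_x_at) read 11.08, 11.07 and 11.12 in knockout and 11.20, 11.05 and 11.01 in control glomeruli, a difference of 0.0013 (SE 0.06, 95% interval -0.16 to 0.16), and its other probe set that was not dim, 1423644_at, differed by -0.03 (SE 0.05). Ireb2 (1433527_at) read 8.43, 8.61 and 8.50 in knockout and 8.50, 8.44 and 8.51 in control glomeruli, a difference of 0.03 (SE 0.06, 95% interval -0.12 to 0.18). Both genes overlapped between the groups, and their intervals were the narrowest of the reference probe sets of the members that were not dim.

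Hmox1 encodes haem oxygenase, which frees iron from haem and responds to oxidative stress. It read 7.96, 7.65 and 8.32 in knockout and 8.14, 7.08 and 8.21 in control glomeruli, with means of 7.98 ± 0.34 in knockout and 7.81 ± 0.63 in control glomeruli (SD, n = 3 each). Control 2 was the lowest array, at -0.98 relative to the mean of the other 5, and was also the lowest for Slc40a1. The difference was 0.17 (SE 0.40, 95% interval -0.91 to 1.25), and -0.20 (SE 0.24) without control 2.

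Leaving out Tfrc, 12 member probe sets of 7 genes were not dim. Of these 8 were higher and 4 lower in the knockout, with a median difference of 0.03. Of all 19619 probe sets that were not dim 10819 were higher, with a median of 0.02. Without control 2 the member count turned round, to 4 higher and 8 lower with a median of -0.06, beside 0.02 for all. Without knockout 3 it was 5 higher and 7 lower. The median size of the difference was 0.10 beside 0.09, and 10 of the 12 differed by less than 1.5-fold, the exceptions being both Slc40a1 probe sets. Without Slc40a1 the remaining 10 lay between -0.27 and 0.19. None passed an adjusted p of 0.05 in limma, where each was 1.

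**Figure D4:**
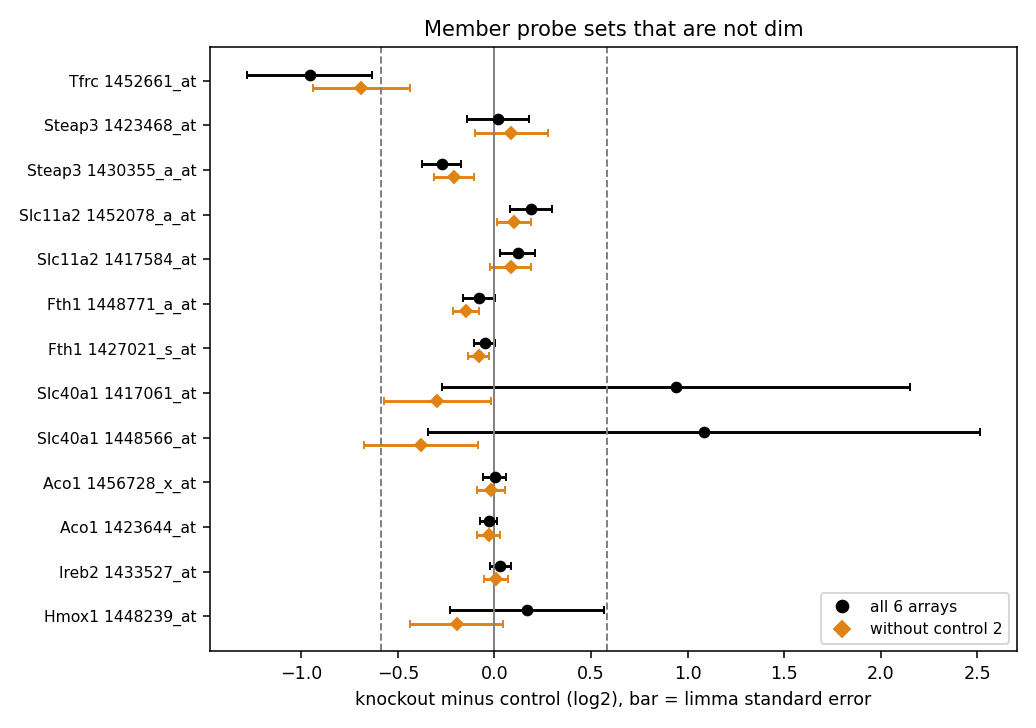
Knockout minus control difference (log2, horizontal axis) of the 13 member probe sets that were not dim, with bars of 1 limma SE, black for all 6 arrays and orange without control 2, and dashed lines at 1.5-fold. Tfrc lies at -0.96 and -0.69, both Slc40a1 probe sets change sign without control 2, and the other black points lie between -0.27 and 0.19.

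The wider iron pathway was read from 9 lists of 120 genes outside the members, with 1 reference probe set a gene, the one of highest mean. Of 112 genes with a probe set 91 were not dim, 57 of them higher and 34 lower in the knockout, with a median difference of 0.03. Of all 19619 probe sets that were not dim 10819 were higher, with a median of 0.02. The wider counts were again 57 and 34 without control 2, and 50 and 41 without control 1. None of the 112 passed the criterion of fold and p in limma or SAM, beside 0.247% of the reference probe sets of all 18194 genes in limma. At an unadjusted p under 0.05 limma called 8 (7.14%) beside 4.84% of all reference probe sets, and SAM called 13 (11.6%) beside 6.89%. These shares include dim probe sets. In a limma fit of only the probe sets that were not dim, 5 of the 91 (5.49%) were called, beside 7.8% of reference probe sets. In a fit of only those with a log2 range above 0.1, 4 of 93 (4.3%) were called, beside 6.65%. Under both filters the wider share was thus the lower. The groups did not overlap in 12 of the 91 (13.2%), beside 13.9% of all reference probe sets that were not dim.

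Among 7 genes of cellular iron uptake that were not dim 3 were higher and 4 lower. Steap4, a metalloreductase, read 6.58, 6.72 and 6.05 in knockout and 6.85, 7.04 and 6.74 in control glomeruli, a difference of -0.43 (SE 0.21, limma adjusted p = 1). Its groups did not overlap, knockout 2 at 6.72 lying just below control 3 at 6.74. Steap2, a reductase of the same family, differed by 0.22 (SE 0.20) and Hfe, a partner of the transferrin receptor, by 0.06 (SE 0.15). In the endocytic cycle that carries the receptor, 7 of 13 genes were higher and 6 lower. Cltc, the clathrin heavy chain, differed by -0.22 (SE 0.09) with no overlap, Ap2a1 of the clathrin adaptor by -0.14 (SE 0.14), and Snx3, a sorting nexin known for recycling the receptor, by 0.11 (SE 0.04) with no overlap.

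Ferritin storage and iron chaperones had 4 genes that were not dim, of which 2 were higher and 2 lower. Ncoa4, the receptor that delivers ferritin for lysosomal breakdown, read 11.28, 11.24 and 11.35 in knockout and 11.19, 11.05 and 11.19 in control glomeruli, a difference of 0.14 (SE 0.05, limma adjusted p = 1). The groups did not overlap, by a margin smaller than the spread within either. Pcbp2, an iron chaperone, differed by -0.06 (SE 0.06) and Bach1, a haem-sensing repressor of ferritin and Hmox1, by -0.02 (SE 0.13). Of 9 genes of iron export and systemic control 5 were higher and 4 lower. Acvr1, a BMP receptor upstream of hepcidin in liver, differed by -0.31 (SE 0.10, no overlap, limma adjusted p = 1), Bmp6, its ligand, by -0.15 (SE 0.14) and Bmpr1a, another BMP receptor, by 0.14 (SE 0.09).

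In the list of iron regulatory protein control and other mRNAs with iron-responsive elements 6 of 7 genes were higher in the knockout, with a median of 0.05. Of all 19619 probe sets that were not dim 10819 were higher, with a median of 0.02. Some of the differences in the list were smaller than their SE. The 1 lower gene, Epas1, was the brightest of the list and differed by -0.08 (SE 0.02) with no overlap. Alas2, the erythroid enzyme of haem synthesis, differed by 0.54 (SE 0.42), and its values of 4.0 to 5.25 in knockout and 3.62 to 4.36 in control glomeruli overlapped near the dim range. Cul1 differed by 0.23 (SE 0.06) with no overlap, and Fbxl5 by 0.11 (SE 0.05), both parts of the ubiquitin ligase that degrades Ireb2 in iron-rich cells. Each had a limma adjusted p of 1.

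Genes of haem synthesis, uptake and breakdown were higher in 13 of 17, with a median of 0.08. Those of mitochondrial iron and iron-sulphur clusters were higher in 12 of 15, with a median of 0.09. Beside these stood 10819 of all 19619 probe sets that were not dim, with a median of 0.02. Uros, an enzyme of haem synthesis, read 6.26, 6.51 and 6.30 in knockout and 5.66, 6.25 and 5.54 in control glomeruli, a difference of 0.54 (SE 0.23, limma adjusted p = 1). Its groups did not overlap, though knockout 1 at 6.26 and control 2 at 6.25 almost met. Hp, haptoglobin, which binds free haemoglobin, ranged from 4.70 to 7.30 in knockout and from 3.50 to 6.83 in control glomeruli, lowest in control 2, and Flvcr1, a haem exporter, differed by -0.20 (SE 0.10). Nfu1, a carrier of iron-sulphur clusters, read 9.83, 9.89 and 9.84 in knockout and 9.61, 9.67 and 9.66 in control glomeruli, a difference of 0.20 (SE 0.02). Its groups lay apart by more than their spread, yet its limma adjusted p was 0.805. Hscb, a cochaperone of cluster assembly, differed by 0.17 (SE 0.05) with no overlap, and Lyrm4, a partner of the cysteine desulphurase, by -0.19 (SE 0.18).

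The HIF list had 7 of 12 genes higher, and the Nrf2 list of oxidative response 2 of 7. Egln3, a HIF prolyl hydroxylase, differed by -0.49 (SE 0.28), Adm, adrenomedullin, by 0.47 (SE 0.25) and Pdk1, a kinase that restrains pyruvate oxidation, by -0.29 (SE 0.16). These genes of the HIF list lay in both directions, and each overlapped between the groups. Gclc, an enzyme of glutathione synthesis, differed by -0.17 (SE 0.11), Nfe2l2, which is Nrf2 itself, by -0.16 (SE 0.06) and Keap1, its inhibitor, by 0.08 (SE 0.08).

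**Figure D5:**
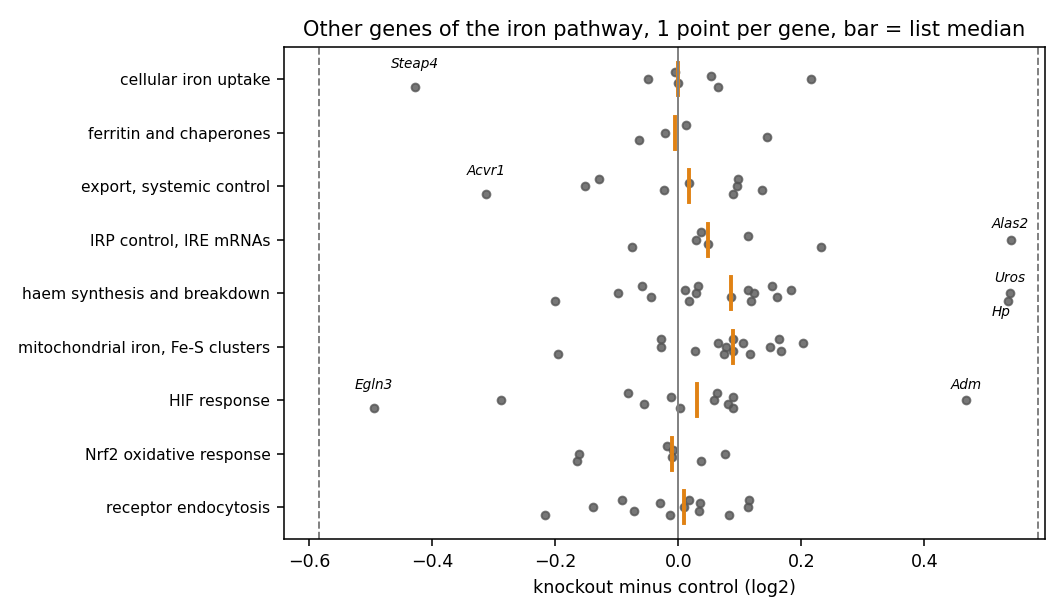
Knockout minus control difference (log2, horizontal axis) of the reference probe set of each gene that was not dim in the 9 wider lists, 1 point per gene, orange bars at list medians and dashed lines at 1.5-fold. All points lie inside the dashed lines, between -0.49 and 0.54, and the medians lie between -0.01 and 0.09.

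The genes whose profile over the 6 arrays lay nearest to that of Tfrc were found by the root mean square distance of centred log2 values among 10378 reference probe sets that were not dim. They were Serhl (distance 0.161), Plk2 (0.203), Slc26a7 (0.214), Jun (0.217) and Egln3 (0.250), beside a median distance of 0.602. All 5 were highest in control 2, as Tfrc was, which follows largely from choosing them by the Tfrc profile. Plk2, a polo-like kinase, read 8.56, 8.56 and 8.90 in knockout and 8.78, 9.83 and 9.48 in control glomeruli, and Jun, an immediate early transcription factor, read 12.05, 11.93 and 12.49 in knockout and 12.23, 13.44 and 12.52 in control glomeruli. In both, knockout 3 lay above control 1 and the groups overlapped. Slc26a7, an anion exchanger, read 9.10, 9.42 and 10.01 in knockout and 10.22, 10.66 and 9.97 in control glomeruli, and knockout 3 overlapped with control 3. Serhl, on chromosome 15 as Ddn is, read 5.54, 5.54 and 6.07 in knockout and 6.21, 6.76 and 6.46 in control glomeruli, without overlap. Of the other members Slc40a1 and Hmox1 ran the opposite way in control 2, where they were lowest.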

How the data were processed

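Per the labels and the study's methods, RNA of isolated glomeruli was hybridised to Affymetrix mouse arrays, and the authors deposited log2 values made with GCRMA (version 2.30.0), which corrects background, quantile-normalizes between arrays and summarizes probes. Array intensity limits the precision, and 3 arrays a group allow an exact two-sided permutation p no lower than 0.1. The labels call the samples biological replicates. Gene symbols came from the platform annotation: 34958 probe sets had 1 gene, 932 several and 9211 none. In R 4.3.3 the package limma, version 3.58.1, fitted all 45101 probe sets by lmFit and eBayes, two-sided, without filter or covariate (4 residual and 0.312 prior degrees of freedom), with Benjamini-Hochberg adjustment over all probe sets. The study's criterion, a fold over 1.5 and an unadjusted p under 0.05, was used with limma's p. SAM was written out in R over the 20 permutations. Its p was pooled over all probe sets that varied, and so can fall below 0.1. The script was tested on simulated data. Members and lists were chosen with earlier results of these data known. Named are all members, Ddn, up to 3 genes a wider list with the largest difference that were not dim, and the 5 genes nearest to Tfrc. Epas1 and some cell type markers are named besides. Promoters and chromosomes are RefSeq's (GRCm38.p6). Alternatives were a trended robust prior, SAM, 2 filters, median centring, quantile normalization, an offset of 16, array weights, a fold of 1.2, the mean over probe sets, the replicate block and leaving out each array. Raw intensities were not analysed here.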

Additional observations from a re-analysis of the deposited data

How the results depend on the processing

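The Tfrc difference was negative under every alternative run and lay between -1.15 and -0.69 when each array was left out. The count of member probe sets past the criterion was 1, or 0 to 2 with an array left out: 0 without knockout 1, knockout 2, control 2 or control 3, and 2, both of Tfrc (the second the dim 1422966_a_at), without control 1. With the replicate block it was 0. The numbers are not known to pair the mice: deviations of mice with the same number correlated at 0.09, 0.35 and 0.25, although each array correlated best with its own number, and under the block all probe sets past the criterion were 64 in place of 81. The wider count was 0, but 1 (Uros) with array weights, and 0 to 1 with an array left out, namely Adm without knockout 3 and Uros without control 2. Some differences changed sign. Steap3 was -0.13 as a mean over probe sets. Aco1 was -0.011 after a further quantile normalization, -0.028 with array weights and -0.014 as a mean over probe sets. Hmox1 was -0.029 with array weights. With an array left out Steap3 lay between -0.11 and 0.12, Slc40a1 between -0.30 and 1.57, Aco1 between -0.039 and 0.059, Ireb2 between -0.016 and 0.073 and Hmox1 between -0.20 and 0.37. The cause was not tested. Median centring shifted every difference by 0.019 on the log2 scale and moved the members at an unadjusted p under 0.05 to 5 (20.8%) and the wider genes to 25 (22.3%), beside 46.6% of all probe sets and 38.5% of reference probe sets. No member or wider gene passed an adjusted p of 0.05 under any limma alternative run. Dim probe sets, among them 5 of Tfrc, lie near the floor, where a difference may be understated.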
